A study of Mus musculus with 2 samples.

Results

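The Fc gamma receptors (Fcgr1, Fcgr2b, Fcgr3 and Fcgr4), the TREM receptors (Trem1, Trem2 and Trem3), the adaptors Fcer1g and Tyrobp and the kinase gene Syk were described in mouse bone marrow cells exposed to ID8 ovarian tumour cells. A probe set, the group of short probes that reports 1 transcript on an Affymetrix array, was assigned to a gene when that gene was its only symbol in the platform annotation. All 10 genes were found, with 20 probe sets, among 18193 genes and 34945 probe sets named in this way. Marrow cells from C57BL/6 femurs were grown in RPMI-1640 with 5% FBS. For the exposed sample they lay for 4 days below a transwell insert that held the tumour cells, while the title of the sample names tumour cell supernatant. The labels call the exposed cells myeloid-derived suppressor cells (MDSC) and give them the surface phenotype CD11b+Gr1+. The second sample was labelled as bone marrow cells with the same phenotype, with no tumour cells named among its characteristics. Its time in culture is not stated separately. With 1 array per group the values carry no replicate error, and nothing was tested between the samples.

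Fc gamma receptors bind the constant part of immunoglobulin G on immune complexes and coated particles, and TREM receptors are immunoglobulin-like receptors of myeloid cells. Most of them carry no signalling motif of their own. They pair in the membrane with a short adaptor, the Fc receptor gamma chain (the product of Fcer1g) or DAP12 (the product of Tyrobp), whose cytoplasmic tail holds an ITAM, an immunoreceptor tyrosine-based activation motif. Once Src family kinases phosphorylate the ITAM, Syk docks there and starts the signal for phagocytosis, the oxidative burst and cytokine release. Fcgr2b is the exception among the Fc gamma receptors, because its own tail holds an inhibitory motif (ITIM) that recruits phosphatases. Neutrophils and monocytes, the cells that MDSC resemble, are the classical users of both adaptors.

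Promoter sequence was available from RefSeq (GRCm38.p6) for 8 of the 10 genes, without Tyrobp and Trem3. The 250 bases before each annotated start were searched on both strands for GAGGAA, the core bound by the myeloid factor PU.1. The 8 genes had 10 such windows, since Fcgr3 and Syk each have a pair of annotated starts. The stretches that hold a match are shown because PU.1 is a textbook regulator of myeloid receptor genes. They are written 5′ to 3′ on the strand of the gene, with the matches in capitals. TTCCTC is GAGGAA read from the other strand.
Fcgr1, chr3:96294007-96294036, minus strand: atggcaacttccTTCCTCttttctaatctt
Fcgr3, chr1:171059395-171059421, minus strand: gagtccatttccTTCCTCtttttgtag
Fcgr4, chr1:171018892-171018921, plus strand: aaggctatttacTTCCTCtcttctagtcaa
Syk, chr13:52596861-52596881, plus strand: tgctgacactttGAGGAAaag
Trem1, chr17:48232565-48232594, plus strand: attttcagagaaGAGGAAactgaggtccca
Trem2, chr17:48346349-48346378, plus strand: agcctcctttccTTCCTCcctccctcacgc

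GAGGAA was found in 7 of the 10 windows, which belong to 6 of the 8 genes. Over all 32851 RefSeq windows of the same length, 23.3% held it, and the share was 22.5% among the 2885 windows of genes at or above the 90th percentile of signal. The match began 22 bases before the start in Fcgr4, 15 in Fcgr3 (6 from its other annotated start), 55 in Fcgr1 and 40 in Trem2. In Syk it lay 9 bases before the downstream start, and in Trem1 162. The Fcgr3 match is a single site that counts in both windows of that gene. The windows of Fcer1g and Fcgr2b held no match, which says only that these letters are not in the window. A match is a string of letters and not a measured binding site. Genes with a match lay at both ends of the signal range described below, Fcgr3 with a high signal and Fcgr1 and Trem2 with low ones.

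**Figure D1:**
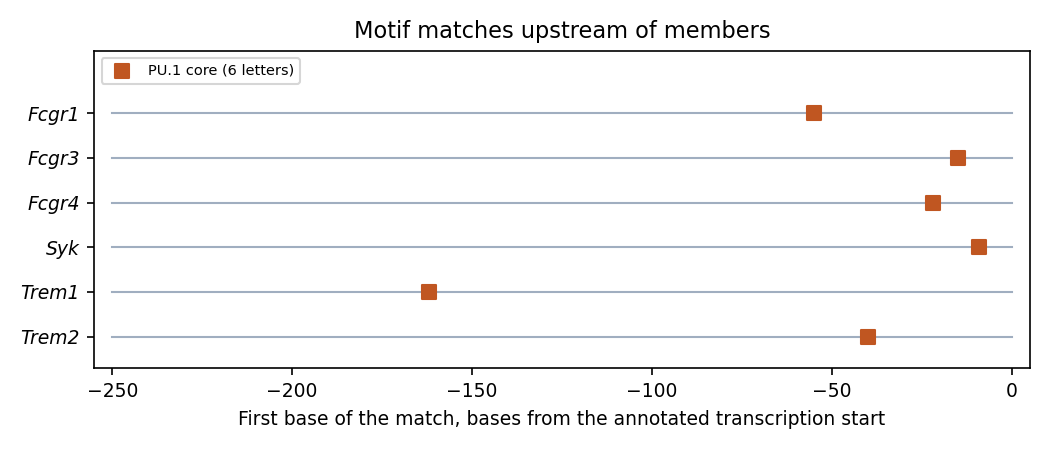
Position of each match (squares, GAGGAA on either strand) in the 250 bases before the annotated start, in bases from the start, for the 6 genes with a match. The upstream start is not drawn for Syk, nor the second start of Fcgr3. The PU.1 core lay within 55 bases of the start in 5 genes and 162 bases before it in Trem1.

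Values are MAS5 signals, a linear fluorescence summary in arbitrary units. No detection calls are used here, so a floor was set at the 40th percentile of the array, a signal of 68.77. Percentiles give the proportion of the array's 45037 probe sets that read lower. Each gene takes the value of the brightest of its probe sets. All 10 genes lay above the floor, as did 71.3% of all genes. At or above the 90th percentile (a signal of 619.81) lay 8 of the 10, against 14.8% of all genes, and at or above the 99th (4651.03) lay 3, against 1.39%. The median percentile was 98 for the 10 genes and 61.4 for all genes. Counted by probe set, 18 of 20 were above the floor, against 63.5% of all named probe sets, 15 were at or above the 90th percentile, against 11.3%, and 3 at or above the 99th, against 0.947%. By the dimmest probe set of each gene, 8 of the 10 passed the floor, against 49.7% of all genes. The 10 genes are well-studied myeloid genes chosen with results of this array known, so these shares describe them and test nothing. Probe sets differ in hybridisation, so their signals are not ranked as transcript amounts.

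**Figure D2:**
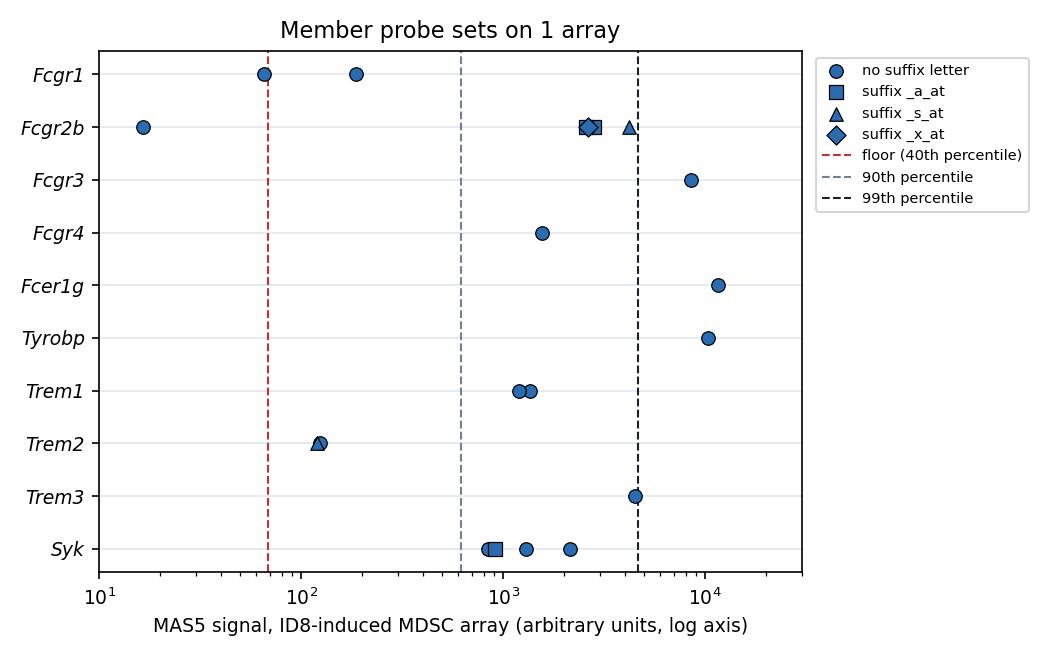
MAS5 signal of each of the 20 probe sets (log axis) on the ID8-induced MDSC array, by gene; marker shapes give the suffix letter of the probe set and dashed lines the 40th, 90th and 99th percentiles of the array. Fcer1g, Tyrobp and Fcgr3 lie to the right of the 99th percentile, while the probe sets of Fcgr1 and Trem2, and 1 of Fcgr2b, lie to the left of the 90th.

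The adaptors and Fcgr3 gave signals near the top of the array. Fcer1g, whose gamma chain serves the activating Fc receptors and several lectin receptors, read 11533.86 on its only probe set (1418340_at, percentile 99.9), and 60 of the 45037 probe sets read higher. Tyrobp, whose product DAP12 serves the TREM receptors, read 10321.86 on 1450792_at (percentile 99.8), with 75 probe sets higher. Both adaptors thus stood in the top percent of the array, each on a single probe set that has no second reading to check it.

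Syk, the kinase that both ITAM adaptors recruit, had 4 probe sets, each past the 90th percentile. They read 2143.01 (1418261_at), 1296.86 (1418262_at), 909.28 (1425797_a_at) and 838.8 (1457239_at). The brightest was 2.55 times the dimmest. Among the 1093 genes with 4 probe sets the median of this ratio was 5.25, and 16.8% of them had a smaller one, so the readings of Syk disagreed less than those of most such genes.

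The activating Fc gamma receptors fell at high and low places on the scale of the array. Fcgr3, the low-affinity activating receptor (CD16), read 8496.87 on 1448620_at (percentile 99.7), with 129 probe sets higher. Fcgr4, an activating receptor of neutrophils and monocytes that prefers IgG2a and IgG2b, read 1550.44 on 1425225_at (percentile 96). Fcgr1, the high-affinity receptor CD64 and a marker of monocytes and macrophages, read 186.8 on 1417876_at (percentile 72.1) and 65.64 on 1436625_at (percentile 38.2). The second Fcgr1 reading lay just below the floor, and the first stood above the median of all genes (125.73). A dim reading shows a low signal on that probe set and not that the gene was silent.

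Fcgr2b, the inhibitory receptor, was read by 5 probe sets that fell into 4 high values and 1 low one. The high ones were 4206.2 (1435477_s_at), 2808.24 (1451941_a_at), 2617.06 (1455332_x_at) and 2556.33 (1435476_a_at), which lay between percentiles 97.6 and 98.8. The fifth, 1447622_at, read 16.37 (percentile 4.6). The brightest was 256.95 times the dimmest, a ratio larger than in 99.1% of the 463 genes with 5 probe sets, whose median was 7.45. Without the dim probe set the ratio was 1.65.

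The suffix of a probe set bears on how its Fcgr2b value is read. A suffix a marks probes shared by transcripts of the same gene, s marks probes that can be shared with transcripts of other genes, and x marks probes of which some resemble other sequences. All 4 bright Fcgr2b probe sets carried a letter, and the dim one carried none. Of the bright ones, 1451941_a_at (2808.24) and 1435476_a_at (2556.33) carried a, the letter for transcripts of the same gene. The others carried s and x. The outer domains of Fcgr2b and Fcgr3 are closely alike in sequence, and both genes gave bright readings. Probe sequences were not used here, so a share of Fcgr3 transcript in the signal of Fcgr2b was not tested. With probe sets without a letter alone, Fcgr2b would read 16.37 and lie below the floor. Whether Fcgr2b counts as bright on this array depends on the probe set read.

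**Figure D3:**
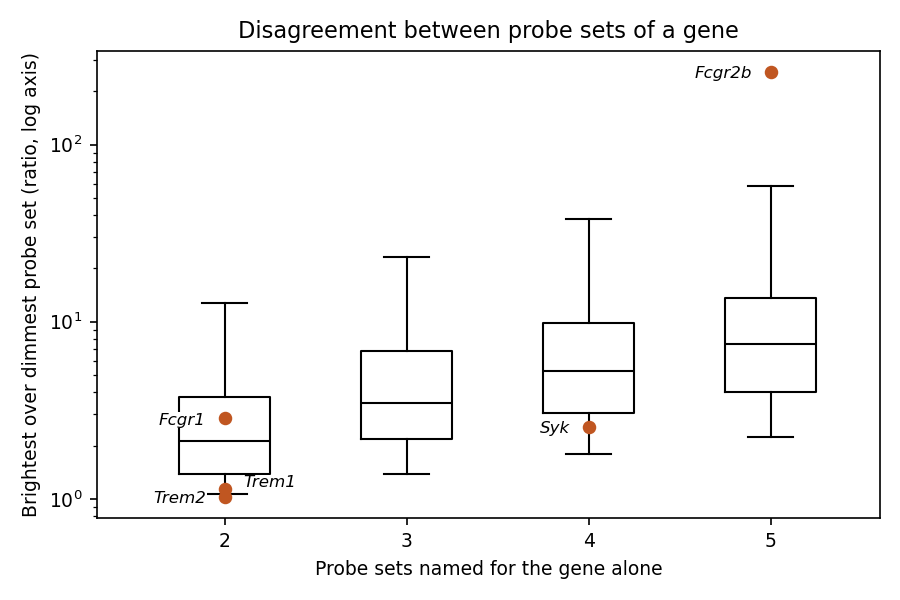
Ratio of the brightest to the dimmest probe set of a gene (log axis) by the number of probe sets named for it, on the ID8-induced MDSC array. Boxes show the median and quartiles of all genes with that number, whiskers the 5th and 95th percentiles, and points the 5 described genes with several probe sets. Fcgr2b lies above the whisker at 256.95, while Trem1 (1.13) and Trem2 (1.03) lie near 1.

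Of the TREM receptors, Trem1 and Trem3 gave high signals and Trem2 a low one. Trem1, which amplifies inflammatory responses of neutrophils and monocytes, read 1351.67 (1460282_at) and 1194.92 (1447284_at), at percentiles 95.3 and 94.6. Its probe sets differed by 1.13 times, against a median of 2.12 among 4695 genes with 2 probe sets. Trem3, an activating mouse receptor that pairs with DAP12, read 4470.3 on 1460271_at (percentile 98.9). Trem2, the receptor of tissue macrophages, microglia and osteoclasts that binds lipids and lipoproteins, read 123.93 (1421226_at) and 120.32 (1421792_s_at), at percentiles 61 and 60.1. The Trem2 probe sets differed by 1.03 times, a smaller ratio than in all but 2.1% of genes with 2 probe sets. Both Trem2 values lay near the median of all genes and narrowly exceeded the array's 60th percentile (119.96).

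The receptors also lie in clusters of the genome. In the RefSeq annotation of GRCm38.p6, Fcgr2b, Fcgr4 and Fcgr3 follow each other on chromosome 1 with 0 protein-coding genes between them, and Fcer1g follows after 7 others. On chromosome 17, Trem1 and Trem3 are direct neighbours, and 3 protein-coding genes, Treml4 and Treml2 among them, separate Trem3 from Trem2. Along this cluster Trem3 stood at percentile 98.9 and Trem2 at 61. Between them, Treml2 read 526.7 on its brightest and 37.95 on its dimmest of 4 probe sets, and Treml4 233.07.

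The rest of the pathway was described from 6 lists with 107 symbols, of which 91 had a probe set of their own. Above the floor lay 85 of the 91, at or above the 90th percentile 34 and at or above the 99th percentile 4, beside shares of 71.3%, 14.8% and 1.39% among all genes. The counts of each list below are read against the same shares. Their median percentile was 85.6, between the 61.4 of all genes and the 98 of the 10 genes above. Like the 10, they are mostly genes of blood cells and were chosen with results of this array known.

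At the receptor, 5 of 6 measured Src and Syk family kinases passed the floor and 1 reached the 90th percentile, close to the 71.3% and 14.8% of all genes. Fgr, the Src family kinase of neutrophils and macrophages, read 2188.08 (1315.4 on its other probe set). Zap70, the counterpart of Syk in T cells, read 416.95 and Blk, a kinase of B cells, 230.78. Src read 111.26 and 31.97, on either side of the floor, and Yes1 lay below it at 54.02. For the kinase list as a whole the median percentile was 67.1, near the 61.4 of all genes.

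Downstream of Syk, 21 of 21 measured adaptors and effectors passed the floor and 8 reached the 90th percentile, with a median percentile of 88.4. Rac2, the GTPase that activates the phagocyte oxidase, read 8430.42 on its brighter and 230.26 on its dimmer probe set. Lcp2 (SLP-76, a scaffold phosphorylated by Syk) read 2955.52 and 177.3. Bcl10, part of the complex through which Syk activates NF-kB, read 2757.53, and 1747.62 on the dimmest of its 4 probe sets. Prkcd (protein kinase C delta) read 2599.55 and 1340.6. Rac2 and Lcp2 were thus high on 1 of 2 probe sets, while Bcl10 and Prkcd were high on all of theirs.

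Inhibitory phosphatases, docking proteins and ITIM receptors passed the floor in 24 of 25 cases, and 13 reached the 90th percentile. The median percentile of 91.9 was the highest of the 6 lists. The ITIM receptors Cd300lf and Pirb (the paired receptor that binds MHC class I) read 4295.12 and 4080.95, each on 1 probe set. Pag1, a membrane adaptor that recruits the Src inhibitor Csk, read 2990.27 on its brightest and 132.07 on its dimmest of 4 probe sets. Ptpn6, the phosphatase SHP-1 that ITIM receptors recruit, read 2788.54 and 2655.3. Siglecf, an ITIM receptor typical of eosinophils, lay below the floor at 18.54. Bright signals were thus found on the inhibitory side of the pathway as well as on the activating side.

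A list drawn up for other receptors linked to DAP12, the related adaptor DAP10 or the Fc receptor gamma chain also held Hcst, the DAP10 gene (568.41). Of its 21 measured genes, 19 passed the floor, 8 reached the 90th percentile and 3 the 99th. Pairing with an adaptor was not tested for any of them, and a place on the list does not show that a gene pairs directly. The lectin receptors Clec4e (Mincle) and Clec4d, both partners of the gamma chain, read 9739.85 (3038.77 on its other probe set) and 7726.79. Itgb2, the beta subunit of the leukocyte integrins, read 6879.76, and Csf1r, the macrophage colony-stimulating factor receptor, 4402.9 with 1126.15 on its dimmest of 3 probe sets. Ncr1, a receptor of natural killer cells, and Sirpb1a lay below the floor at 65.21 and 52.53. The 21 genes of the list had a median percentile of 76.8.

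Of 11 measured other Fc receptors and Fc-binding proteins, 9 passed the floor and 0 reached the 90th percentile, against 71.3% and 14.8% of all genes. With so few genes these counts do not set the list apart, and its median percentile was 51.3, against 61.4 for all genes. Trim21, a cytosolic antibody receptor, read 347.89, Fcgbp 204.98, Fcgrt (the neonatal Fc receptor, which recycles IgG) 155.83 and Fcmr, the IgM receptor, 140.97. Fcer1a, the IgE-binding chain that shares the gamma chain with the Fc gamma receptors, lay below the floor at 20.21, and Fcamr at 59.56.

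The list of TREM ligands and of proteases that shed these receptors passed the floor in 8 of 8 measured cases. Of these, 4 were at or above the 90th percentile, and the median percentile was 83.6. The 8 are not all ligands or sheddases, since they include Sema6d (169.18) and Plxna1 (88.78). Plxna1 is also counted among the receptors above. Hmgb1 was listed but had no probe set of its own. Pglyrp1, a neutrophil granule protein and ligand of TREM-1, read 4197.07. Hspa1a, a heat shock protein, read 4196.29. The sheddase gene Adam17 read 2667.19 and no less than 2186.91 on its 3 probe sets, and Adam10 738.63 with 113.31 on the dimmest of 4.

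**Figure D4:**
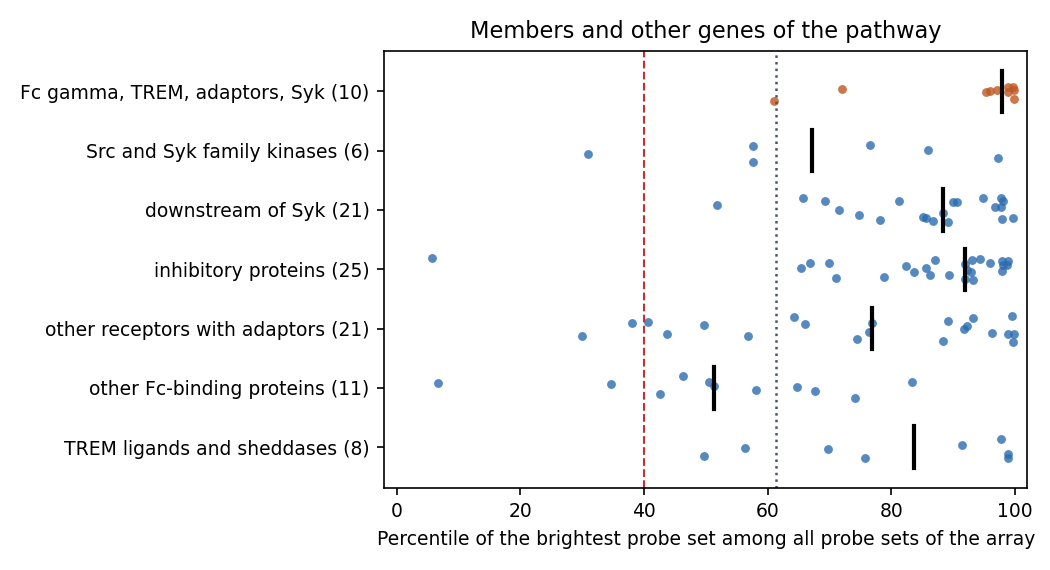
Percentile of each gene's brightest probe set on the ID8-induced MDSC array for the 10 described genes (top row, orange) and the 6 lists of other pathway genes (blue), with the number of genes in brackets. Black bars are medians, the dashed line the floor and the dotted line the median of all genes (61.4). Medians run from 51.3 for other Fc-binding proteins to 98 for the 10 genes.

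The cell types that use these receptors were checked through their markers on the same array. Neutrophil markers were bright, 7 of 7 measured genes at or above the 90th percentile and 6 at or above the 99th, from 2568.71 for Cxcr2 to 24856.67 for S100a9. Itgam, which encodes CD11b, read 2374.74. Ly6g and Ly6c2, antigens of the Gr1 antibody, were listed as markers but had no probe set of their own, so neither could be read. Monocyte and macrophage markers ranged from 35.04 to 4402.9 and passed the floor in 5 of 9 cases. Csf1r, Cd68 (3597.1) and Adgre1 (1442.83) were at or above the 90th percentile. C1qb, a chain of complement C1q, read 365.19 on its brightest and 18.71 on its dimmest of 3 probe sets, and Ccr2, the chemokine receptor of inflammatory monocytes, 286.04 with 9.84 on its dimmest of 4. Mertk (48.62), C1qc (35.13), Mrc1 (35.06) and C1qa (35.04), genes of mature macrophages, lay below the floor. Markers of this lineage thus lay on both sides of the floor. Of the C1q chains, C1qb passed it on its brightest probe set, while C1qa and C1qc did not. In a bulk sample fewer cells of a type and less RNA per cell cannot be told apart, and the part of cell composition in these signals was not tested.

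Since 71.3% of all genes pass the floor, passing it does not by itself place a cell type in the sample. Markers of other cells that carry an Fc receptor or an ITAM adaptor stayed below the 90th percentile, apart from the osteoclast marker Acp5 (741.36), a gene that macrophages use too. The other 5 osteoclast markers read 228.28 or less, and Dcstamp, Ocstamp and Calcr lay below the floor. Natural killer cell markers passed the floor in 3 of 4 cases and read at most 129.14. Mast cell and basophil markers passed in 3 of 7 cases, with Cpa3 at 32.34 and Fcer1a at 20.21. B cell markers passed in 4 of 4 cases (78.12 to 261.18), T cell markers in 4 of 5 (62.28 to 276.97) and platelet markers in 5 of 5 (137.94 to 308.34). Dendritic cell markers passed in 5 of 6 cases (32.24 to 164.79) and microglial markers in 2 of 3 (49.9 to 226.78). Epithelial tumour cell markers passed in 4 of 7 cases and read from 21.57 to 158.91.

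**Figure D5:**
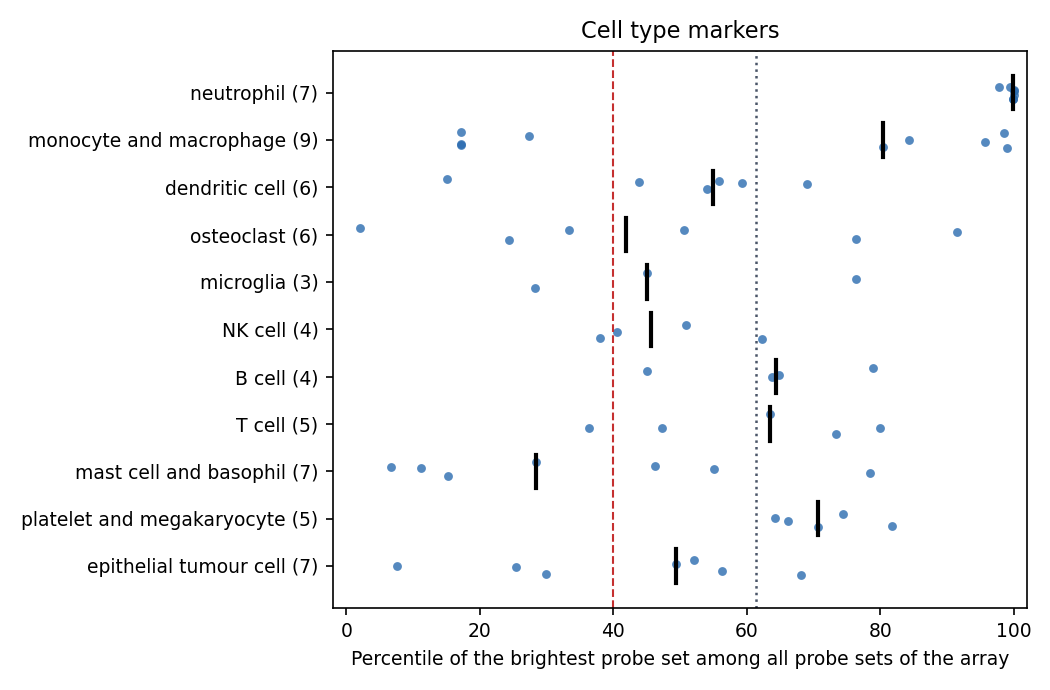
Percentile of each marker's brightest probe set on the ID8-induced MDSC array for 11 cell types, with the number of measured markers in brackets. Black bars are medians, the dashed line the floor and the dotted line the median of all genes (61.4). Neutrophil markers lie at the right edge, and monocyte and macrophage markers spread over the whole range.

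The bone marrow control could not be set beside these values, because its deposited signals fall along the list of probe sets. Taken in the order of their IDs, the 20 probe sets of the 10 genes had 16 control values at or above 91.67, the last value of that column, and 4 below it, and within either range 0 rises from one to the next. The first of the 20, of Fcgr1, held 1293.91 and the last, of Trem1, 93.57. Counted without the split, the control gave 2 rises in 19 steps and the ID8-induced array 9. No fold change between the samples is therefore given for any gene, and none of the signals above shows a change caused by the tumour cells.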

How the data were processed

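RNA of 2 samples, 1 array each, was measured on Affymetrix arrays from biotinylated cRNA (6 ug of total RNA, per the labels' protocols). The deposited values are linear signal intensity per probe set, made by the authors with MAS5, per the submitters' processing notes. A version and scaling target for MAS5, not given in the sources used here, stay unknown, and no detection calls were used. The number of arrays limits the precision. MAS5 scales an array as a whole, and a probe set that hybridises poorly reads low whatever its transcript.

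GEO's platform annotation gave the names. It listed 1 symbol for 34945 of 45037 probe sets, which were kept, and left out were 932 with several symbols and 9160 without any. The Entrez IDs of 34741 were found in the RefSeq table of GRCm38.p6. The 10 genes and all lists were chosen with earlier results of these data known. Every probe set of the 10 genes is named. In each other pathway list the rule named the 4 strongest genes and up to 3 of the dimmest below the floor. The neighbours Treml2 and Treml4, Itgam, Hcst, Plxna1, Sema6d and the markers named were added after their values were seen. No test, fold change or list of genes with a like pattern was possible with 1 usable array. Percentiles, the count of rises in a fully sorted column and a search for the letters GAGGAA were tried on simulated data in simplified form. The split of the control column at its last value and the positions of the matches were not simulated. Alternatives were a floor at percentile 20 or 60, the mean log2 signal or the dimmest probe set of a gene, and suffix-free probe sets. Each summary of the 10 genes was recomputed with some or all of these. The pathway lists were not recomputed with suffix-free probe sets, and the marker lists were not recomputed. Computation used Python 3.11.15, numpy 2.4.6 and pandas 2.3.3.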

Additional observations from a re-analysis of the deposited data

Results flagged for a closer look

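The bone marrow control column holds measured signals that no gene-level description uses. At the first of the 20 probe sets by ID, of Fcgr1, its signal was 1293.91, against 186.8 in the ID8-induced array. The value is listed here as a signal in an unused column, and since the control signals fall along the IDs, it is not read as a level of Fcgr1.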

How the results depend on the processing

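The count of the 10 genes above the floor (10) and at or above the 90th percentile (8) stayed within 1.5 times of the reported value in all alternatives that were run: the first was 10 with floors at the 20th and 60th percentile and with the mean over probe sets, 9 with suffix-free probe sets and 8 with the dimmest probe set, and the second 7 or 8. The 18 of 20 probe sets above the floor became 19 and 18 at the other floors and 12 of 14 without suffix letters. The median percentile moved from 98 to 95.5 with the mean, 95.3 with the dimmest and 96.6 without suffix letters. The signals of Fcgr1, Fcgr2b and Syk moved by over 1.5 times with the mean (110.73, 1052.84 and 1206.61) and with the dimmest (65.64, 16.37 and 838.8). Of the pathway lists, the Src and Syk family kinases above the floor fell from 5 to 3 of 6 with the floor at the 60th percentile and to 3 with the dimmest probe set, and other Fc-binding proteins from 9 of 11 to 4 and 5. Fewer genes lie above a higher floor by construction. No paired analysis was possible because each group held 1 array.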
